A study of Mus musculus with 12 samples.

Results

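The 10 genes described here belong to, or act beside, the TGF-beta superfamily of secreted factors. They were chosen by name from the 22630 genes with a row in each tumor and are Tgfb1, Tgfb2, Tgfb3, Inhba, Inhbb, Bmp1, Bmp2, Bmp4, Bmp7 and Gdf10. RNA was sequenced from 12 subcutaneous tumors grown in immunocompromised NSG mice, 8 to 10 weeks old by the labels, from the mouse pancreatic cancer line KCip53-1. The line came from 1 primary culture of a mouse whose alleles included Ptf1a-Cre, TREp53R270H and R26 rtTa/rtTa, sorted for dsRed, and the study describes its wild-type p53 copies as lost. All groups share these alleles, and doxycycline (dox) drives the p53R270H transgene through the rtTa protein. The 4 no-dox tumors received no dox. The 4 plus-dox tumors had dox at 0.2 g/l in sucrose water for 36 days, and the 4 off-dox tumors had it for 33 days followed by 3 days without. This schedule is that of the labels, whereas the study's text has dox withdrawn once tumors could be felt. NSG mice lack mature T, B and NK cells but keep fibroblasts, vessels and myeloid cells, and RNA was taken from unsorted tissue, so host cells add to each value. In such bulk samples, fewer cells of a type and less RNA per cell cannot be told apart. Each mouse carried 2 tumors, and the labels do not say which tumors shared a mouse. Tumors are treated as independent in the tests, and the p-values would be too small wherever both tumors of 1 mouse entered the same group.

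TGF-beta superfamily ligands are made as precursors, folded as dimers and cut from their propeptides, and the 3 TGF-betas stay latent until released in the matrix. An active dimer joins type I and type II receptor kinases at the cell surface. TGF-betas and activins then act mainly through Smad2 and Smad3, and most BMPs through Smad1, Smad5 and Smad9, each with the shared partner Smad4. In the pancreas TGF-beta signalling is known both for restraining epithelial growth and for driving fibrosis and epithelial-mesenchymal transition, and Smad4 is often lost in human pancreatic cancer. Bmp1 differs from the others, since it is a metalloproteinase that trims procollagens and other matrix proteins and, despite its name, no superfamily ligand.

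The 12 libraries held 19845923 to 33137609 reads on genes, and these made up 88.4% to 89.4% of mapped reads without dox, 82.2% to 87.1% on dox and 81.1% to 85.8% after its removal. That share separated every no-dox tumor from the other 8, so a difference in it and the absence of dox cannot be told apart. The Trp53 row did not separate the groups, with 40.1 to 57.4 RPKM without dox, 40.4 to 56.0 on dox and 41.6 to 45.4 after its removal. It does not check the dox labels, and the groups below are as labelled. RPKM, a read count scaled to exonic length and to the mapped reads of the library, is a level per length and is used for all levels. Plus-dox tumor 2 and off-dox tumor 4 stood apart from the rest over 14548 genes, at 101.9 and 66.9 on the first principal component (49.8% of the variance) against -43.5 to 6.23 in the other 10. Their Epcam levels were the lowest, at 7.76 and 40.9 RPKM against 72.3 to 388 RPKM in the other 10. The fits of members and of pathway lists were therefore also made without both tumors.

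Promoter sequences show how the starts of Inhba and Inhbb differ, the only pair with a ratio below in which both genes had an entry. They are RefSeq sequences of GRCm38.p6, 250 bases up to the annotated start, and 6 of the 10 genes had an entry, whereas Tgfb3, Bmp1, Bmp2 and Bmp7 did not. A TGF-beta, both activin beta subunits and a BMP are printed, 5′ to 3′ on the gene's strand, because these 4 genes also moved apart in the tumors described below. Capitals mark a GC box (GGGCGG) or a TATA box (TATAAA) on either strand.
Tgfb1, chr7:25686752-25687001, plus strand: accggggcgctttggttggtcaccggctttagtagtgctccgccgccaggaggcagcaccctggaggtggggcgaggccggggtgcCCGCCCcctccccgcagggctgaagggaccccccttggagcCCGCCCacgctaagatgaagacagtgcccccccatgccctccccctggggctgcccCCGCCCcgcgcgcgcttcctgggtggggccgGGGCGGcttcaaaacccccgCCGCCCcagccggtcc
Inhba, chr13:16011601-16011850, plus strand: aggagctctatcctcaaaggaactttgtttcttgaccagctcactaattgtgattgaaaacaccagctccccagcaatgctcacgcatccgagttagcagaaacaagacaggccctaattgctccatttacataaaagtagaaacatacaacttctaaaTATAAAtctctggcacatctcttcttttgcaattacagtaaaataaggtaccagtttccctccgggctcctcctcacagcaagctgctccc
Inhbb, chr1:119422249-119422498, minus strand: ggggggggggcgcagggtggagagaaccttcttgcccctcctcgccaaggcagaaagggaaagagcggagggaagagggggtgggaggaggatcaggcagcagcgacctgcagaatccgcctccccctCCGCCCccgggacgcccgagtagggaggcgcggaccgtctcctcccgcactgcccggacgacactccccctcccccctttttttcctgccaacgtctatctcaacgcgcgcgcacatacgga
Bmp4, chr14:46390670-46390919, minus strand: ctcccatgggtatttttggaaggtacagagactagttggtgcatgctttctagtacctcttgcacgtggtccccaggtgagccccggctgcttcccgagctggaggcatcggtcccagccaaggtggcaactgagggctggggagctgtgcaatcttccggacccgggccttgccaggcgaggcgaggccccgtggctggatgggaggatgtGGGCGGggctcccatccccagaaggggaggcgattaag
The Tgfb1 window was 75.2% G and C and held 5 GC boxes, whose far ends lay 164, 123, 67, 36 and 16 bases before the start. The Inhba window was 43.2% G and C, held no GC box and had a TATA box 91 bases before the start. Its partner Inhbb was 68.0% G and C with 1 GC box, and Bmp4 was 63.2% with 1 GC box. Of the other matched genes, Gdf10 (78.8%) held 4 GC boxes and Tgfb2 (53.6%) held a TATA box and the Smad motif CAGACA. The median over all 32851 promoters of the table was 52.4%. A GC box was present in 32.7% of those promoters, a TATA box in 12.4% and CAGACA in 17.1%. The AP-1 motif TGANTCA, present in 6.75%, matched none of the 6 windows. Such matches describe letters only, and these data do not bear on what binds there.

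None of the 10 genes passed the test in any of the 3 comparisons of groups. A gene was called when its Benjamini-Hochberg adjusted p from edgeR's quasi-likelihood test over 17561 genes was under 0.1, its change over 1.5-fold and its mean over 0.25 RPKM. Over all genes, 0% were called for plus-dox over no-dox, 1.34% for off-dox over no-dox (181 up and 54 down) and 0% for off-dox over plus-dox. At an unadjusted p under 0.05, 2 members passed in the first comparison, 1 in the second and 2 in the third, against 13.7%, 20.4% and 3.06% of all genes tested. In none of the 30 comparisons of a member did the groups separate completely, whereas 8.86%, 11.5% and 1.4% of all genes did so. The median log2 fold change of the members was 0.54 for plus-dox over no-dox and 0.41 for off-dox over no-dox, beside 0.01 for all genes in each, and -0.09 for off-dox over plus-dox. Without plus-dox tumor 2 and off-dox tumor 4, 1 library of each dox-treated group, these medians were 0.08, 0.05 and -0.17, and no member was called either. The comparisons with no-dox share the no-dox tumors, so their values are given side by side only.

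The members spanned a wide range of levels. Bmp1 had the highest median over the 12 tumors, 65.4 RPKM, followed by Tgfb3 with 44.2 and Tgfb1 with 31.2. Inhbb, Inhba and Bmp7 followed at 14.6, 13.4 and 12.3 RPKM, then Bmp2 at 7.47, Bmp4 at 6.67, Tgfb2 at 2.63 and Gdf10 at 0.675 RPKM. Tgfb1 lay above Inhbb, and Tgfb2 above Gdf10, in 12 of 12 tumors, and Bmp1 above Tgfb3 in 11. Tgfb3 exceeded Tgfb1, Inhbb exceeded Inhba, Inhba exceeded Bmp7 and Bmp2 exceeded Bmp4 in only 7 of 12 tumors, so the order within these pairs depended on the tumor.

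**Figure D1:**
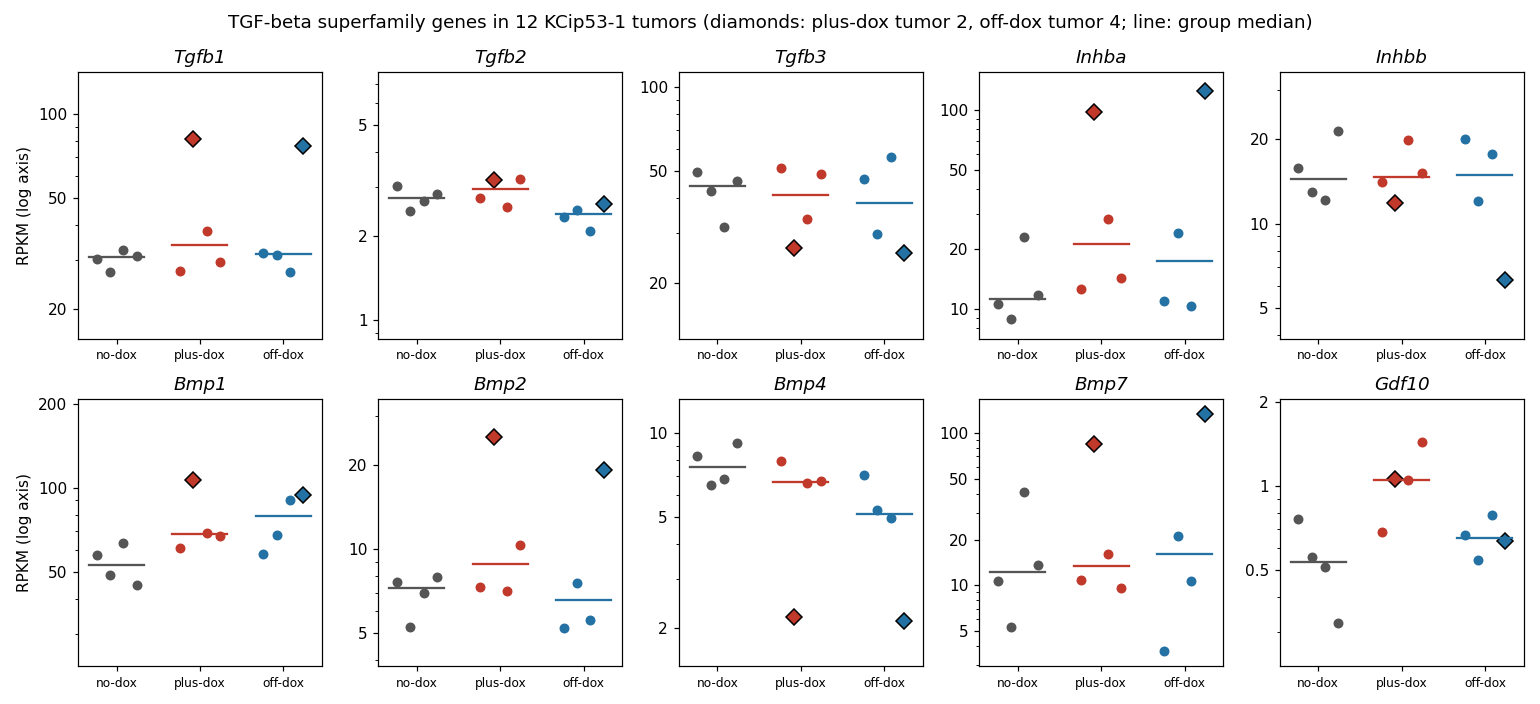
RPKM of the 10 genes (log axis) in the 4 tumors of each group, a point per tumor and a line at the group median, with diamonds for plus-dox tumor 2 and off-dox tumor 4. The groups overlap for every gene, and the diamonds are the highest of all 12 points for Tgfb1, Inhba, Bmp1, Bmp2 and Bmp7 and the lowest for Tgfb3, Inhbb and Bmp4.

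Tgfb1 (mm9 chr7:26472021-26490015), the TGF-beta made by most cell types and known for its profibrotic and immunosuppressive action, was at 30.3, 27.3, 32.5 and 31.1 RPKM in no-dox tumors. It was at 27.4, 81.5, 38.1 and 29.6 RPKM in plus-dox tumors and at 31.8, 31.3, 27.3 and 76.6 RPKM in off-dox tumors. Of the 12 values, 10 lay within 27.3 to 38.1 RPKM, and the other 2 came from plus-dox tumor 2 and off-dox tumor 4, one in each dox-treated group. The log2 fold change over no-dox was 0.56 ± 0.39 (SE) on dox and 0.50 ± 0.39 off dox, with edgeR adjusted p of 0.517 and 0.488. Without those 2 tumors it was 0.07 ± 0.14 and 0.00 ± 0.14.

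Tgfb3 (mm9 chr12:87397693-87419991), a TGF-beta known from palate and mesenchyme development, showed the opposite picture. It was at 49.6, 42.4, 31.7 and 46.0 RPKM in no-dox, at 51.4, 26.6, 33.6 and 48.8 in plus-dox and at 47.1, 29.9, 56.3 and 25.4 RPKM in off-dox tumors. Each group held both high and low tumors, and the 2 lowest values came from off-dox tumor 4 and plus-dox tumor 2. Its group differences were small beside their errors, at -0.08 ± 0.26 on dox and -0.07 ± 0.26 off dox over no-dox. Tgfb2 (mm9 chr1:188447065-188529871), the least abundant of the 3 TGF-betas here, varied little. It was at 3.02, 2.46, 2.66 and 2.82 RPKM in no-dox, at 2.74, 3.18, 2.53 and 3.19 in plus-dox and at 2.34, 2.48, 2.08 and 2.6 RPKM in off-dox tumors. The off-dox values were mostly at the low end, and the log2 difference between off-dox and plus-dox was -0.27 ± 0.12, with an unadjusted edgeR p of 0.050, an adjusted p of 1 and an exact permutation p of 0.086.

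Of the summed RPKM of the 3 TGF-betas, Tgfb3 made up 55.9% ± 5.72 (SD, n = 4) without dox, 48.0% ± 17.8 on dox and 48.7% ± 18.0 after its removal, and Tgfb1 40.5% ± 5.5, 48.6% ± 18.2 and 48.3% ± 18.0. Tgfb2 stayed between 2.43% and 3.98% in all 12. The wide SD of the dox-treated groups came with plus-dox tumor 2 and off-dox tumor 4, in which Tgfb1 made up 73.3% and 73.2% of the sum, against 31.8% to 51.3% in the other 10.

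Inhba (mm9 chr13:16106308-16119044) and Inhbb (mm9 chr1:121312042-121318825) encode the beta A and beta B subunits, whose dimers are the activins and which form inhibins with the alpha subunit. Inhba was at 10.5, 8.83, 22.8 and 11.8 RPKM in no-dox, at 12.5, 97.9, 28.3 and 14.2 in plus-dox and at 10.9, 23.9, 10.3 and 125 RPKM in off-dox tumors. Plus-dox tumor 2 and off-dox tumor 4 were at 6.87-fold and 11.4-fold the median of the other 3 tumors of their groups. The remaining tumors of all 3 groups overlapped. Inhba thus had the largest fitted change of the members, 1.52 ± 0.87 on dox and 1.71 ± 0.88 off dox on the log2 scale, yet with edgeR adjusted p of 0.441 and 0.292. Without both tumors these became 0.46 ± 0.42 and 0.17 ± 0.43. Inhbb was at 15.9, 12.9, 12.1 and 21.5 RPKM in no-dox, at 14.1, 11.8, 19.9 and 15.2 in plus-dox and at 20.1, 12.1, 17.8 and 6.30 RPKM in off-dox tumors. Its groups were alike within their spread (log2 fold change -0.02 ± 0.31 on dox and -0.13 ± 0.31 off dox), with off-dox tumor 4 lowest and plus-dox tumor 2 next.

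Bmp2 (mm9 chr2:133378935-133388621) and Bmp4 (mm9 chr14:47003282-47010274) are closely related BMPs that pattern embryonic tissues, and Bmp7 (mm9 chr2:172695189-172765794) is a BMP known from kidney development. Bmp2 was at 7.61, 5.27, 6.97 and 7.95 RPKM in no-dox, at 7.34, 25.2, 7.11 and 10.4 in plus-dox and at 5.23, 7.59, 5.58 and 19.2 RPKM in off-dox tumors. Bmp4 was at 8.27, 6.51, 6.82 and 9.16 RPKM in no-dox, at 7.90, 2.19, 6.60 and 6.74 in plus-dox and at 7.08, 5.28, 4.95 and 2.11 RPKM in off-dox tumors. The same 2 tumors were thus highest for the one and lowest for the other. The log2 fold changes over no-dox were 0.86 ± 0.48 and 0.48 ± 0.48 for Bmp2 and -0.39 ± 0.38 and -0.65 ± 0.38 for Bmp4, on and off dox, with edgeR adjusted p from 0.350 to 0.628. Without those tumors Bmp2 was at 0.25 ± 0.19 and -0.16 ± 0.20, and Bmp4 at -0.12 ± 0.17 and -0.40 ± 0.17.

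Bmp7 was the most variable member. It was at 10.7, 5.37, 41.2 and 13.7 RPKM in no-dox, at 10.9, 84.2, 16.0 and 9.64 in plus-dox and at 3.72, 21.2, 10.8 and 133 RPKM in off-dox tumors. The values were widely spread in the untreated group too (SD 16.0 RPKM, n = 4), where no-dox tumor 3 stood above the others, but less than on dox (SD 36.1) or off dox (SD 60.9). The log2 fold change over no-dox was 0.77 ± 1.06 on dox and 1.29 ± 1.07 off dox with all tumors, and turned to -0.55 ± 0.66 and -0.58 ± 0.67 without the 2 tumors.

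Gdf10 (mm9 chr14:34736773-34748468), also called Bmp3b and a relative of Bmp3, was the member with the lowest level and the smallest p. It was at 0.764, 0.556, 0.512 and 0.323 RPKM in no-dox, at 0.685, 1.06, 1.05 and 1.44 in plus-dox and at 0.665, 0.544, 0.790 and 0.638 RPKM in off-dox tumors, from 30 to 97 counted reads per tumor. Of the plus-dox values, 3 of 4 lay above every no-dox and off-dox value, and plus-dox tumor 1 overlapped both groups. The difference was 1.99-fold over no-dox (log2 fold change 1.00 ± 0.29), with an unadjusted edgeR p of 0.0050, an adjusted p of 0.322 and an exact permutation p of 0.057, where 0.0286 is the smallest that 4 against 4 tumors allow. DESeq2 with moderated fold changes gave an adjusted p of 0.091 and called Gdf10, the only member it called, beside 0.512% of all genes. The value did not rest on the 2 tumors, being 0.99 ± 0.33 without them. Off dox, Gdf10 was 0.33 ± 0.29 above no-dox and -0.67 ± 0.29 from plus-dox on the log2 scale (edgeR adjusted p = 1, exact permutation p = 0.086).

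Bmp1 (mm9 chr14:70874362-70920067), the procollagen C-proteinase, was at 57.4, 48.7, 63.4 and 45.0 RPKM in no-dox, at 60.8, 106, 69.1 and 67.4 in plus-dox and at 57.7, 67.7, 90.2 and 94.2 RPKM in off-dox tumors. In each dox-treated group, 3 of 4 tumors lay above every no-dox tumor. The difference over no-dox was 1.43-fold on dox (log2 0.51 ± 0.22, edgeR adjusted p = 0.347) and 1.48-fold off dox (0.56 ± 0.22, adjusted p = 0.181), with an exact permutation p of 0.057 for each. Without the 2 tumors it was 0.30 ± 0.17 and 0.44 ± 0.17. Leaving out off-dox tumor 1 alone brought the off-dox difference to 0.69 with an adjusted p of 0.094, the only setting in which edgeR called a member.

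**Figure D2:**
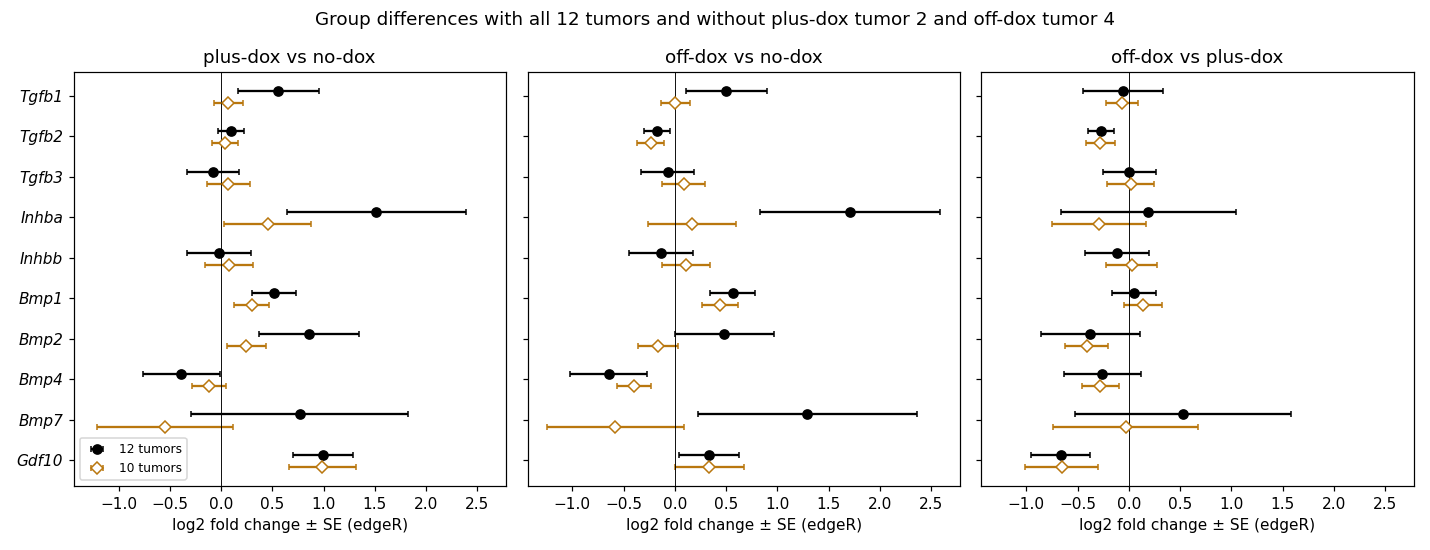
Log2 fold change ± SE (edgeR) of each gene in the 3 comparisons, with all 12 tumors (filled) and without plus-dox tumor 2 and off-dox tumor 4 (open). For Tgfb1, Inhba, Bmp2 and Bmp7 the open points over no-dox lie nearer to 0 or on its other side, whereas Gdf10 stays near 1 on dox.

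The members were next compared tumor by tumor. In plus-dox tumor 2 and off-dox tumor 4 together, 5 members lay above the range of the other 10 tumors (Tgfb1, Inhba, Bmp1, Bmp2 and Bmp7) and 3 below it (Tgfb3, Inhbb and Bmp4). That is 8 of 10 members, beside 22.5% of the 17552 tested genes with a unique symbol, and no test was made because the tumors were picked from the data. Tgfb2 and Gdf10 lay within the range in both tumors. Within each family a gene that was high there stood beside one that was low. The Tgfb1 to Tgfb3 ratio of RPKM was 3.07 and 3.01 in these tumors and 0.484 to 1.13 in the others. Inhba exceeded Inhbb 8.28-fold and 19.8-fold, against ratios of 0.543 to 1.98, and Bmp7 exceeded Bmp4 38.5-fold and 62.9-fold, against 0.526 to 6.04.

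The remaining 10 tumors were not uniform either. No-dox tumor 3, plus-dox tumor 3 and off-dox tumor 2, one from each group, had Tgfb1 to Tgfb3 ratios of 1.02, 1.13 and 1.05, while the other 7 had 0.484 to 0.677. Their Inhba to Inhbb ratios were 1.88, 1.42 and 1.98 against 0.543 to 0.936, and their Bmp7 to Bmp4 ratios 6.04, 2.42 and 4.01 against 0.526 to 2.18. With plus-dox tumor 2 and off-dox tumor 4, the same 5 tumors had the 5 highest levels of Inhba and of Bmp7 and the 5 lowest of Tgfb3, and 4 of them were among the 5 highest for Tgfb1. Other members did not follow this order. In no-dox tumor 3, plus-dox tumor 3 and off-dox tumor 2, Bmp1 was at 63.4 to 69.1 RPKM, within 45.0 to 90.2 in the other 7. Bmp2 there was at 6.97 to 7.59 RPKM, within 5.23 to 10.4, and Bmp4 at 5.28 to 6.82 RPKM, within 4.95 to 9.16. Inhbb, at 12.1 to 19.9 RPKM, overlapped 12.9 to 21.5 RPKM in the other 7. Each group contributed at least 1 of the 5 tumors, among them an untreated one. These 5 tumors were singled out after their values were seen, the ratios share genes with the levels, and no test was made.

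**Figure D3:**
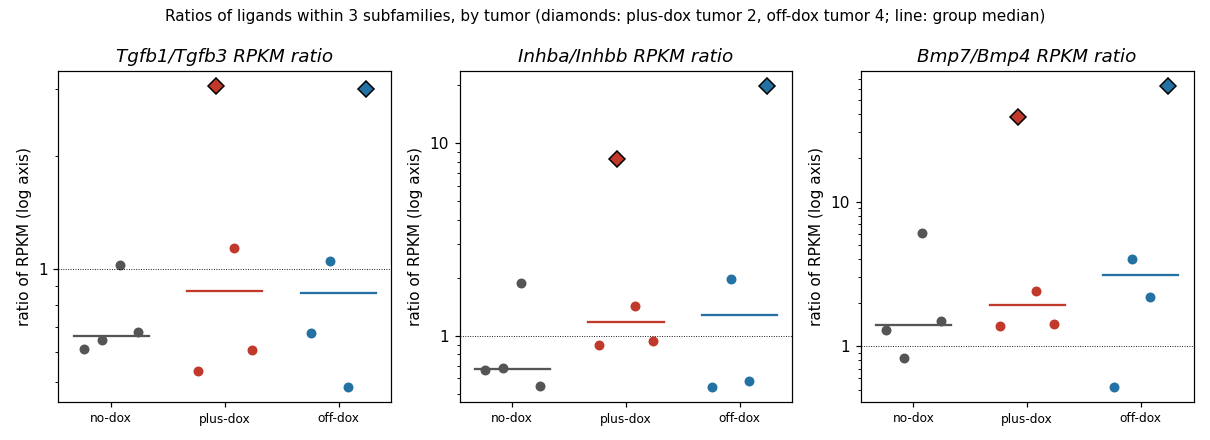
Ratio of RPKM of Tgfb1 to Tgfb3, Inhba to Inhbb and Bmp7 to Bmp4 (log axes) in each tumor by group, with a line at the group median, a dotted line at 1 and diamonds for plus-dox tumor 2 and off-dox tumor 4. The diamonds are the highest points in each panel, and 1 further tumor of each group lies above 1 for the first 2 ratios.

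Cell type markers differed between these tumors as well, and their part in the ligand levels was not tested. Of 10 epithelial markers, 5 lay below the range of the other 10 tumors in plus-dox tumor 2 and off-dox tumor 4 and none above, while the summed level, 1364 and 1558 RPKM, lay within the others' 1054 to 3054 RPKM. Cdh1, the epithelial cadherin, was at 22.1 and 42.1 RPKM there against 57.5 to 190.8 in the others. The keratin Krt8, at 532 and 525 RPKM, lay within the others' 317.7 to 972.5 RPKM. Krt19 was at 178.6 and 98.1 RPKM against 103.0 to 352.4 in the others. Zeb1, a transcription factor of epithelial-mesenchymal transition, lay within the range at 12.6 and 14.1 RPKM against 8.22 to 16.7. Vim, the mesenchymal filament, was at 1756 and 1041 RPKM against 720 to 1015 in the others. Of 10 fibroblast markers 2 lay above the range, with sums of 3082 and 1534 RPKM against 1118 to 2231, and of 8 endothelial markers 3, with sums of 130 and 55.6 RPKM against 32.1 to 56.0. By group, the epithelial sum ran from 2289 to 3054 RPKM without dox, 1364 to 2012 on dox and 1054 to 2623 after its removal, and the fibroblast sum from 1118 to 2057, 1586 to 3082 and 1303 to 1534 RPKM. The epithelial sums of no-dox and plus-dox tumors thus did not overlap, nor did the fibroblast sums of plus-dox and off-dox tumors. The acinar markers Cel, Prss1, Amy2a5 and Ptf1a were listed at 0 in all 12 tumors. The sum of the 8 acinar markers was 6.77 and 8.47 RPKM in plus-dox tumor 2 and off-dox tumor 4 against 33.0 to 117 in the others. Of these markers 7 stayed below 1 RPKM in every tumor, so the sum rests mostly on the remaining marker. In both tumors 1 acinar marker lay above the range of the others and 1 below it. Marker sums for pericytes, endothelium, macrophages, neutrophils, T and NK cells, skeletal muscle and adipocytes ran over 21.8 to 146, 32.1 to 130, 2084 to 4083, 23.3 to 57.1, 3.57 to 9.13, 7.93 to 1028 and 14.5 to 1110 RPKM, with overlapping groups except where T and NK cell markers (3.57 to 5.10 RPKM in no-dox) lay below both dox-treated groups.

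Genes whose log2 CPM followed a member most closely over the 12 tumors, among 12691 with a mean over 1 RPKM, are given as a description without a p. All points share 12 libraries, and 2 of these tumors weigh heavily. Inhba went with Itga5, the fibronectin receptor alpha subunit (Pearson r = 0.99, and 0.97 over the 10 tumors without the 2). Tgfb1 went with Tmem184b (0.98 and 0.86), Bmp4 with the mucosal chemokine Cxcl17 (0.98 and 0.92) and Tgfb3 with Zfp956 (0.95 and 0.91). Bmp2 was closest to Stc1, stanniocalcin, but only with the 2 tumors (0.95 and 0.61). Bmp1 went with Rasa4 (0.98 in each), Inhbb with Hyal1 (0.94 and 0.89), Gdf10 with Lsp1, a leukocyte protein (0.90 and 0.89), and Tgfb2 with Tbc1d20 (0.89 and 0.86).

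The rest of the pathway was followed in 7 lists with 95 genes tested. None of them was called by edgeR in any comparison. At an unadjusted p under 0.05, 11 were higher and 3 lower on dox than without, 4 and 4 off dox against no-dox, and 0 and 11 off dox against plus-dox, where 13.7%, 20.4% and 3.06% of all genes passed. Of 19 other ligands tested none averaged above 3 RPKM, the highest being Gdf11 at 2.87, Inha, the inhibin alpha subunit, at 2.47 and the stress-induced Gdf15 at 2.27 RPKM. Without plus-dox tumor 2 and off-dox tumor 4, of 93 genes tested 11 were higher and 2 lower on dox, 2 and 4 off dox, and 1 and 9 off dox against plus-dox, where 12.3%, 22.7% and 3.70% of all genes passed. In that fit edgeR called 1 of the 93, Id1, off dox against no-dox (log2 fold change -0.68 ± 0.15, adjusted p = 0.0712, against -0.31 ± 0.26 with all 12 tumors). With all 12 tumors, median log2 fold changes on dox were 0.07 for the 19 other ligands, 0.14 for 15 receptors and co-receptors and -0.01 for 8 Smads. They were 0.25 for 12 latency and activation genes, 0.07 for 14 secreted antagonists and 0.16 for 18 transcriptional targets.

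Among the receptors, Tgfbr2, the type II TGF-beta receptor, was at 50.9 ± 1.51 RPKM (SD, n = 4) without dox, 55.8 ± 8.40 on dox and 48.5 ± 10.1 after its removal, and the type I receptor Tgfbr1 at 22.4 ± 1.70, 22.2 ± 0.21 and 24.2 ± 2.39 RPKM. The BMP type I receptor Bmpr1a was at 26.9 ± 2.61, 22.3 ± 2.48 and 21.8 ± 3.19 RPKM. Smad4 was at 28.3 ± 2.68, 27.8 ± 2.12 and 28.2 ± 2.2 RPKM, so its transcript was present in every tumor. Smad2 was at 19.4 ± 0.54, 17.8 ± 0.43 and 17.8 ± 2.29 RPKM and Smad3, which carries TGF-beta and activin signals with it, at 18.6 ± 3.69, 22.0 ± 2.48 and 23.2 ± 5.57 RPKM. Not all were as even, since the inhibitory Smad7 ranged from 7.88 to 20.2 RPKM and the co-receptor Eng from 9.52 to 19.6 RPKM. The differences for Eng and the pseudoreceptor Bambi on dox were 0.50 ± 0.17 and 0.89 ± 0.28 on the log2 scale (edgeR adjusted p = 0.326 for each). These 3 genes were named after their values were seen.

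The most abundant genes that hold or free latent TGF-beta were Thbs1, an activator, at 58.3 ± 4.98, 75.5 ± 16.0 and 61.4 ± 10.4 RPKM, the binding protein Ltbp3 at 49.0 ± 10.5, 59.4 ± 5.5 and 59.2 ± 13.3 RPKM, and the precursor-cutting Furin at 40.4 ± 6.05, 44.1 ± 4.64 and 41.6 ± 4.54 RPKM, without dox, on dox and after its removal. Of the antagonists, Dcn, a proteoglycan that binds TGF-beta, was at 117 ± 40.8, 136 ± 40.3 and 88.7 ± 23.5 RPKM, and Nbl1, a BMP antagonist, at 68.9 ± 9.03, 68.5 ± 5.0 and 55.8 ± 9.73 RPKM. Of the targets, the matrix protein Fn1 was at 411 ± 76.9, 537 ± 102 and 583 ± 218 RPKM, Ctgf at 336 ± 125, 275 ± 113 and 212 ± 60.0 RPKM and the contractile marker Tagln at 233 ± 70.5, 249 ± 58.8 and 201 ± 34.7 RPKM. None of these was called.

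Bmp1 relatives and substrates were the list with the largest median, 0.60 on dox over no-dox and -0.62 off dox against plus-dox. At an unadjusted edgeR p under 0.05, 5 of 9 were higher on dox (Col1a1, Col1a2, Col5a1, Lox and Bgn), where 13.7% of all genes passed. Off dox against plus-dox 7 of 9 were lower (these with Col3a1 and Pcolce), where 3.06% of all genes passed. Both comparisons share the plus-dox tumors, so the rise and the fall are not separate results. Without plus-dox tumor 2 and off-dox tumor 4 the medians were 0.38 and -0.46, with 4 and 4 of 9, beside 12.3% and 3.70% of all genes. The fibroblast marker sums moved the same way, as given above, with 8 of 10 markers higher on dox. Fibroblast markers can include collagens themselves, so these sums are not a separate result, and their part in the collagen levels was not tested. Col1a1, a chain of type I collagen, was at 372 ± 62.4 RPKM without dox, 620 ± 153 on dox and 373 ± 51.5 after its removal, with a log2 fold change of 0.76 ± 0.21 on dox (edgeR adjusted p = 0.322), or 0.61 ± 0.19 without the 2 tumors, and its highest value, 790 RPKM, in plus-dox tumor 2. Col1a2, the other type I chain, was at 434 ± 68.4, 611 ± 124 and 391 ± 13.9 RPKM and the type III collagen Col3a1 at 451 ± 176, 674 ± 294 and 383 ± 85.1 RPKM. Bmp1 itself was 0.05 ± 0.22 from plus-dox after dox removal, whereas Col1a1 was -0.72 ± 0.21 (adjusted p = 1). DESeq2 with moderated fold changes called Col1a1 and the proteoglycan Bgn on dox, and Ltbp2 and the fibrillin Fbn1 among the latency genes. Twsg1, a secreted BMP regulator, fell short of 1.5-fold off dox against no-dox (-0.40 ± 0.11, edgeR adjusted p = 0.097), as did the Bmp1 enhancer protein Pcolce (-0.45 ± 0.10, adjusted p = 0.083), which was named after its value was seen.

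**Figure D4:**
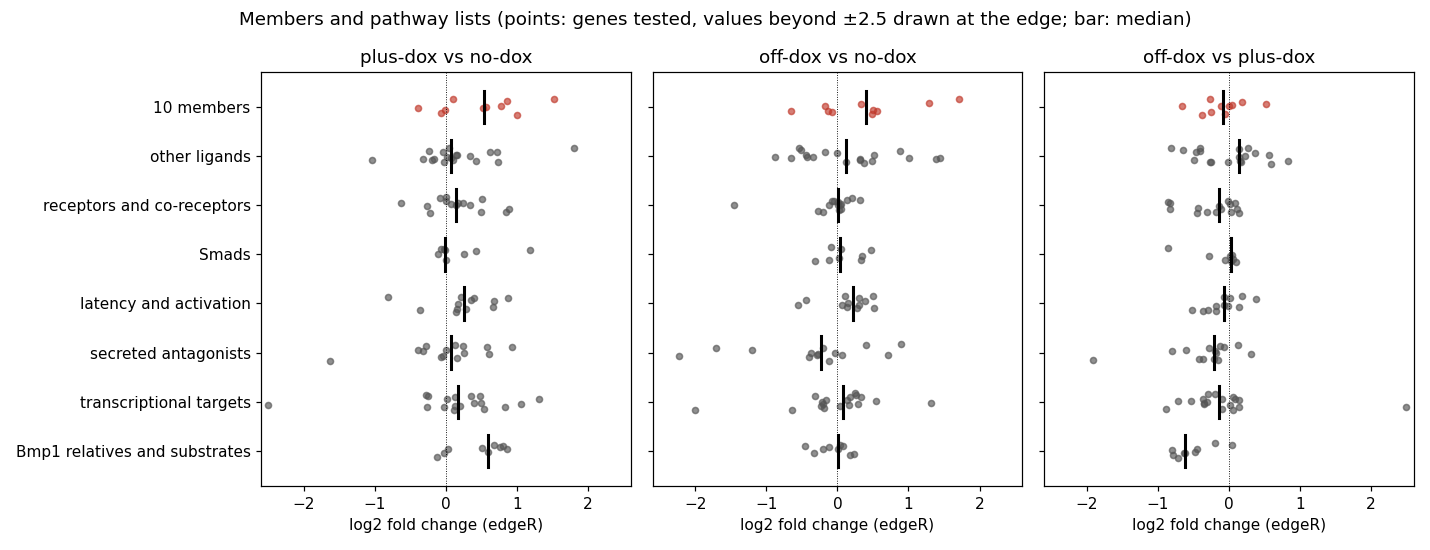
Log2 fold change (edgeR) of the 10 members and of the genes tested in 7 pathway lists, a point per gene and a bar at the median, in the 3 comparisons (values beyond the axis drawn at its edge). Bmp1 relatives and substrates have a median of 0.60 on dox over no-dox and -0.62 off dox against plus-dox, and no gene shown was called.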

How the data were processed

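The 10 genes and the pathway and marker lists were chosen with earlier results of these data known. All 10 genes are named. From each pathway list the named genes are those called and the 3 with the highest mean RPKM. Others are those said in the text to be named after their values were seen, called by DESeq2 or listed for an unadjusted p under 0.05. For each member but Bmp7 the gene with the highest Pearson correlation is named. The closest gene to Bmp7 and 1 allele of the line are not reported here. The authors mapped 50-bp single-end reads of poly(A), non-strand-specific libraries to mm9 with TopHat (version 1.4.1), condensed RefSeq to 1 model per gene and measured unambiguous exonic spans. Deposited per gene were an expected count (coverage summed over bases, so at times fractional, and not normalized) and the RPKM of the authors, scaled to exonic length and mapped reads. None of the 10 genes overlaps another gene in the table, and the handling of multiply mapped reads is not given in the sources used here.

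Counts were rounded. Genes with at least 10 counts summed over 12 tumors entered a fit of the 3 groups in edgeR (version 4.0.16; TMM factors), tested by quasi-likelihood. Limits for a call follow the authors, who used DESeq2, and are an adjusted p under 0.1, over 1.5-fold, over 0.25 RPKM and a length over 250 bp. Single members were also compared by a two-sided exact permutation test of mean log2 CPM (prior count 2) over 70 arrangements, unadjusted over 30 comparisons. The script was tested on simulated data. Alternatives were DESeq2 (version 1.42.0; moderated or unmoderated fold changes), RLE factors, no count filter, fits of 8 tumors, a replicate block, and leaving out tumors. The labels do not say whether a replicate number marks a shared mouse or batch. No replicate was a copy of another, the lowest chi-square per degree of freedom between replicates being 21.9. Gdf1, a ligand, and the markers Adgre1 and Ly6g were not analysed here.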

Additional observations from a re-analysis of the deposited data

Results flagged for a closer look

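In 30 sets of 4 tumors (10 genes in 3 groups), 5 values lay far from the other 3 of their group, with a gap to the nearest that took up more of the group's range than Dixon's 95% critical value for 4 samples. Chance alone flags about 1 in 20 such sets. They were Tgfb1 in off-dox tumor 4 at 76.6 RPKM, Inhba in off-dox tumor 4 at 124.8 RPKM, Bmp2 in off-dox tumor 4 at 19.2 RPKM, Bmp7 in plus-dox tumor 2 at 84.2 RPKM and Bmp7 in off-dox tumor 4 at 132.9 RPKM. All come from the pair of tumors with the lowest Epcam levels. The summed epithelial markers of the pair, 1364 and 1558 RPKM, lay within the 1054 to 3054 RPKM of the other 10. The part of cell composition was not tested.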

How the results depend on the processing

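Among the values of single members under the alternatives, 524 kept their direction and side of the threshold, 43 turned in sign and 3 passed the threshold (Gdf10 on dox with either DESeq2 fit, Bmp1 off dox without off-dox tumor 1). Of the 524, 328 came from fits that left out a single tumor. Some of those fits left out a tumor of the group not compared, which could hardly change the value. Without plus-dox tumor 2 and off-dox tumor 4, log2 fold changes turned on dox to 0.069 (Tgfb3), 0.080 (Inhbb) and -0.55 (Bmp7), off dox to 0.086 (Tgfb3), 0.11 (Inhbb), -0.16 (Bmp2) and -0.58 (Bmp7), and off-dox against plus-dox to -0.29 (Inhba), 0.028 (Inhbb) and -0.032 (Bmp7).

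A replicate block left 0 genes called off dox against no-dox and turned off-dox against plus-dox to -0.12 (Inhba) and -0.16 (Bmp7). Same-numbered tumors correlated at -0.09 on average (-0.45 to 0.57), and 2 of 12 best with their own number, so no pairing by number was seen. Whether same-numbered tumors shared a mouse or batch is not given.

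Genes called on dox numbered 128 and 90 with DESeq2 without and with moderated fold changes (members called, 1 and 1, Gdf10), and off-dox against plus-dox 6 and 4. Off dox against no-dox, the 235 genes became 615 and 396 with DESeq2, 122 with no filter on counts, 3 in a fit of the 8 tumors alone and 471 without plus-dox tumor 2 and off-dox tumor 4. Leaving out each tumor in turn gave 0 to 789 genes there, 0 to 3 on dox and 0 to 1 off-dox against plus-dox, with 0 to 1 members called off dox (Bmp1). The off-dox count was 0 without no-dox 1, 2 or 4, plus-dox 4 or off-dox 2, 3 or 4, then 1 without no-dox 3, 19 without plus-dox 3 and 789 without off-dox 1.

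The log2 fold changes that turned in sign when single tumors were left out ranged on dox from -0.20 to 0.073 (Tgfb3), -0.21 to 0.20 (Inhbb) and -0.54 to 1.64 (Bmp7), and off dox from -0.00010 to 0.67 (Tgfb1), -0.28 to 0.081 (Tgfb3), -0.35 to 0.10 (Inhbb), -0.17 to 0.69 (Bmp2) and -0.58 to 2.159 (Bmp7). Off-dox against plus-dox they ranged from -0.56 to 0.43 (Tgfb1), -0.20 to 0.16 (Tgfb3), -1.35 to 1.24 (Inhba), -0.33 to 0.12 (Inhbb), -0.080 to 0.26 (Bmp1), -1.03 to 0.23 (Bmp2) and -1.35 to 1.84 (Bmp7). The cause was not tested. With 4 tumors a group, changes of the size seen in single tumors cannot be assigned to a group.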

Other observations

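Some genes downstream of, or opposed to, the ligands also lay outside the range of the other 10 tumors in plus-dox tumor 2 and off-dox tumor 4, given here as values with no test. Of 18 transcriptional targets, 6 lay above the range of the other 10 in both tumors (Tgfbi, Id1, Id3, Msx1, Hey1 and Atoh8) and 1 below it (Ctgf), beside 8.89% and 13.6% of all genes. Id3, an inhibitor of differentiation induced by BMPs, was at 145 and 135 RPKM against 29.8 to 75.2 RPKM. Hey1, a transcriptional repressor also known as a Notch target, was at 7.27 and 7.33 RPKM against 0.83 to 2.02 RPKM. Ctgf, a matrix protein and TGF-beta target, was at 130 and 156 RPKM against 188 to 512 RPKM. Of 15 secreted antagonists 3 lay outside the range in both tumors (20%), of 8 Smads 2 (25%) and of 12 latency and activation genes 2 (16.7%), beside 22.5% of all genes. The share was 21.7% of 23 other ligands, 13.3% of 15 receptors and co-receptors and 10% of 10 Bmp1 relatives and substrates. Apart from the targets (38.9%), the lists were thus near or below the share of all genes. Of the antagonists 1 lay above the range, Grem1, a secreted BMP antagonist, at 26.4 and 19.8 RPKM against 2.57 to 6.70 RPKM. The other 2 lay below it, Chrd at 1.20 and 0.745 RPKM against 1.50 to 2.65 RPKM. Chrdl2 was at 0.040 and 0.022 RPKM against 0.136 to 0.461 RPKM. The inhibitory Smad7 was at 16.4 and 20.2 RPKM against 7.88 to 14.03 RPKM. Ltbp4, a latent TGF-beta binding protein, was at 4.98 and 6.97 RPKM against 10.98 to 25.8 RPKM, and Itgb6, a subunit of a TGF-beta activating integrin, at 0.215 and 0.522 RPKM against 0.956 to 2.59 RPKM. These genes were picked from the lists after their values were seen.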
